A study of Rattus norvegicus with 4 samples.

Results

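The platelet-derived growth factor (PDGF) family was examined in rat L6 myoblasts through the genes of its ligands, Pdgfa, Pdgfb, Pdgfc and Pdgfd, and of its receptors, Pdgfra and Pdgfrb. A probe set of the array was taken for a member when the array annotation gave it that gene as its only symbol. Of the 6 members, 5 were found, with 7 probe sets among 31042, or 5 genes among 14217. Pdgfa, Pdgfc, Pdgfd and Pdgfra had 1 probe set each and Pdgfrb had 3, whereas no probe set was found for Pdgfb, which was not analysed here. L6 is a skeletal myoblast line from the Wistar rat, and 4 cultures of it were compared with 1 array each. L6-HGF myoblasts were transduced with a retroviral vector for constitutive expression of human hgf and selected in puromycin, and were grown as a monolayer or as a sheet. L6-WT myoblasts, the wild type line, were grown in the same formats and are described with no vector, so that hHGF, vector and selection cannot be told apart. Sheets are dense myoblast layers that come off a thermoreactive dish intact, and the methods do not say whether L6-HGF is 1 clone.

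PDGFs are secreted dimers that act on receptor tyrosine kinases at the cell surface and are known as mitogens and chemoattractants of mesenchymal cells. The receptor alpha chain binds the A, B and C chains of PDGF, and the beta chain binds mainly B and D. In skeletal muscle, PDGF receptor alpha is known as a marker of fibroblast-like interstitial progenitors and PDGF receptor beta of pericytes and smooth muscle. The chains also differ in how they become active, since A and B are cleaved by furin-like convertases before secretion, whereas C and D leave the cell latent and need cleavage by proteases of the plasminogen activator type.

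All values are deposited log2 values in which every probe set was centred on the median of its 4 arrays, so that they hold differences between arrays and no level. The genes cannot be ranked by abundance, and the markers of a myoblast could not be checked for presence. Each condition was measured once, so that the spread between cultures is unknown. The only measure of technical spread was 45 bacterial control probe sets, whose differences had an SD of 0.12 between the monolayers, 0.22 between the sheets, 0.16 between the L6-HGF arrays and 0.18 between the L6-WT arrays. The largest bacterial difference was 0.35, 0.51, 0.34 and 0.49 in these comparisons. The controls follow labelling and hybridisation only. Of 20 member differences, 13 were larger than 1 SD of the controls, 3 were larger than the largest control difference and 19 lay within 2-fold, the threshold of the study. The median size of a difference over all genes was 0.13, 0.15, 0.20 and 0.19 in the same comparisons. Except between the sheets, most genes were thus also past 1 SD, and passing it does not set a member apart. Of all genes, 10.9% were past the largest control difference between the monolayers, 7.99% between the sheets, 28.5% between the L6-HGF formats and 11.5% between the L6-WT formats, so that 3 of 20 is near the background. At 1.5-fold, 1 member passed between the sheets and 1 between the L6-HGF formats, against 5.78% and 11.3% of all genes. None passed 1.5-fold between the monolayers or between the L6-WT formats, against 2.51% and 7.13%.

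Pdgfrb, the beta receptor, differed the most among the members, and it stood highest in the L6-HGF sheet. As the mean of its 3 probe sets it had 0.67 in the L6-HGF sheet, -0.41 in the L6-HGF monolayer, 0.18 in the L6-WT sheet and -0.18 in the L6-WT monolayer. Both sheets were therefore above both monolayers, and the L6-HGF cultures held both the highest and the lowest value. In L6-HGF, the sheet was 2.11-fold higher than the monolayer, with a log2 difference of 1.08. Of 5 members, Pdgfrb was the 1 past 2-fold in this comparison, where 3.75% of all genes were past 2-fold in either direction. In all, 141 of 14217 genes had a higher value there, and 3.19% had a difference as large in either direction. In L6-WT, the sheet was 1.29-fold higher than the monolayer (log2 0.37), which is below the largest bacterial difference.

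**Figure D1:**
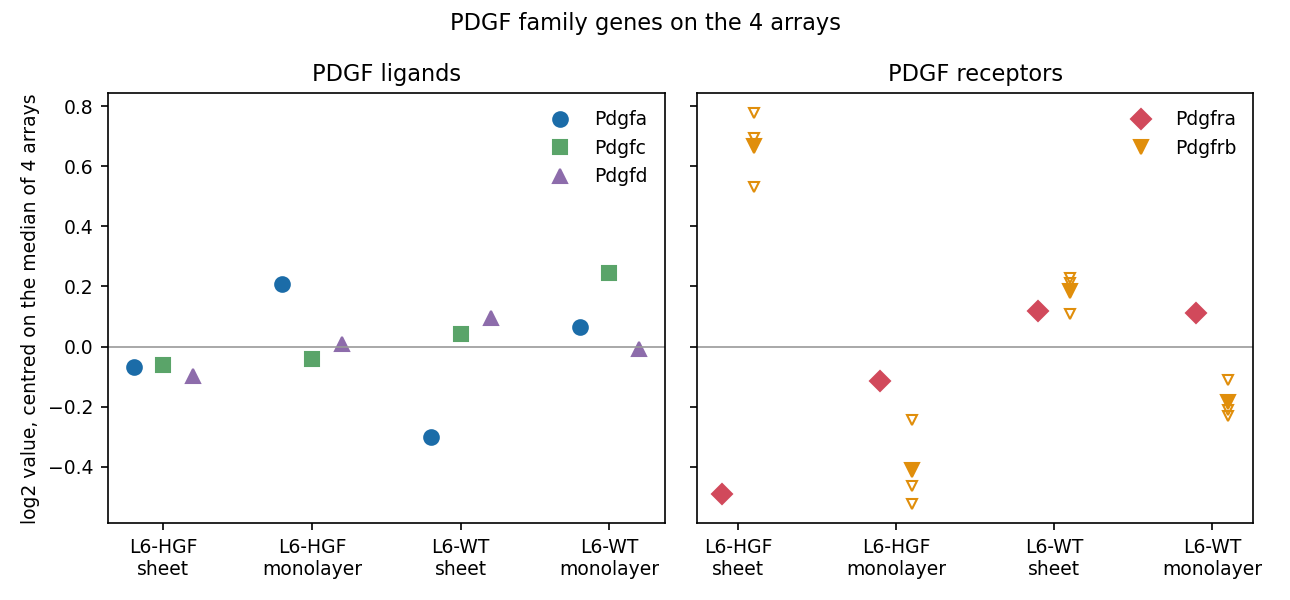
Log2 values (vertical axis, centred on the median of the 4 arrays) of 3 PDGF ligand genes and 2 PDGF receptor genes on each array (horizontal axis). Filled symbols are genes, open triangles are the 3 probe sets of Pdgfrb, and there is 1 array per condition. On the L6-HGF sheet array Pdgfrb is at 0.67 and Pdgfra at -0.49, while the ligands lie between -0.10 and -0.06 there.

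The 3 probe sets of Pdgfrb gave the same order of arrays. Probe set 1379211_at had 0.78 in the L6-HGF sheet, -0.46 in the L6-HGF monolayer, 0.21 in the L6-WT sheet and -0.21 in the L6-WT monolayer. Its sheet-to-monolayer difference was 1.24 in L6-HGF and 0.42 in L6-WT. Probe set 1370642_s_at had 1.05 in L6-HGF and 0.22 in L6-WT, and 1391394_s_at had 0.94 and 0.46, so that the last of them stayed within 2-fold. The first and the last are annotated with the same source transcript and are not independent of each other. The suffix _s_at marks probe sets that can match more than 1 transcript.

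The hHGF difference of Pdgfrb had opposite signs in the culture formats. In sheets, the L6-HGF value of Pdgfrb was 1.40-fold that of L6-WT (log2 0.48), with 0.57, 0.42 and 0.47 from its probe sets. In monolayers it was 1.17-fold lower (log2 -0.23), with -0.25, -0.41 and -0.01 from the same probe sets in the same order. None of these gene-level values passed the largest bacterial difference of its comparison. The difference between both hHGF differences was 0.71, against a largest value of 0.69 for the bacterial controls, and 4.38% of genes had a difference as large. It could not be tested without replicate arrays.

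Pdgfra, the alpha receptor, lay at the other end on the L6-HGF sheet array. It had -0.49 in the L6-HGF sheet, -0.11 in the L6-HGF monolayer, 0.12 in the L6-WT sheet and 0.11 in the L6-WT monolayer. The L6-HGF arrays were both below the L6-WT arrays, and the L6-WT values hardly differed from each other. In sheets, Pdgfra was 1.53-fold lower in L6-HGF than in L6-WT, with a log2 difference of -0.61, past the largest bacterial difference and within 2-fold. With quantile normalization it was -0.50, within 1.5-fold and below the largest bacterial difference of 0.51 on the deposited values. None of the 5 members passed 2-fold between the sheets, where 1.44% of all genes did. For Pdgfra, 457 of 14217 genes had a lower value and 5.11% had a difference as large in either direction. In monolayers it was 1.17-fold lower in L6-HGF (log2 -0.23). None of the 5 members passed 2-fold there, against 0.535% of all genes.

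Between formats, Pdgfra was 1.30-fold lower in the L6-HGF sheet than in the L6-HGF monolayer (log2 -0.38). In L6-WT, the same comparison gave 0.01. With quantile normalization the L6-HGF difference was -0.29, below the largest bacterial difference of 0.34 on the deposited values. None of the 5 members passed 2-fold between the L6-WT sheet and monolayer, as against 1.21% of all genes. Set against each other, the log2 difference of Pdgfrb exceeded that of Pdgfra by 1.10 between the sheets and by 1.45 between the L6-HGF formats. The corresponding gap was 0.36 between the L6-WT formats, while in monolayers the receptors had almost equal hHGF differences of -0.23 and -0.23. The receptor mean was -0.06 between the sheets, because both members are averaged with opposite signs, so it describes neither.

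**Figure D2:**
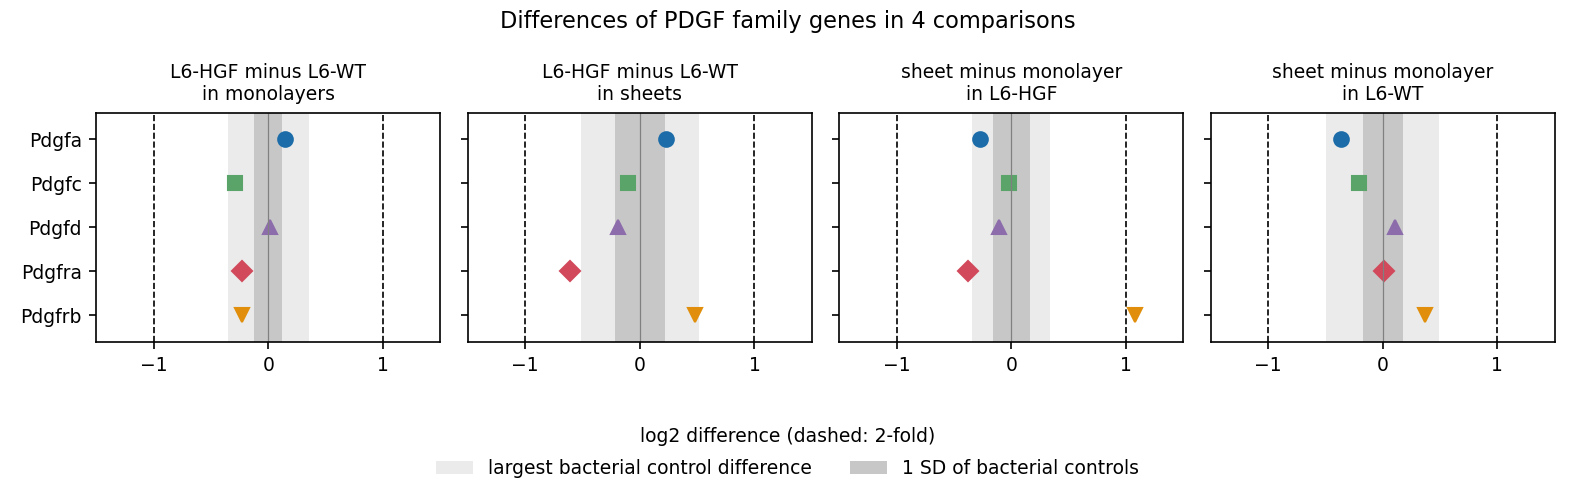
Log2 difference (horizontal axis) of each PDGF family gene (vertical axis) in 4 comparisons of single arrays, with dashed lines at 2-fold. The dark band is 1 SD and the light band the largest size of the differences of 45 bacterial control probe sets. Outside the light bands lie Pdgfra between the sheets (-0.61) and Pdgfra and Pdgfrb between the L6-HGF formats (-0.38 and 1.08), as do 7.99% and 28.5% of all genes in these comparisons.

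The ligands varied less than the receptors, and none of the 3 passed the largest bacterial difference in any comparison. Pdgfa, which encodes the A chain and acts through the alpha receptor, had -0.07 in the L6-HGF sheet, 0.21 in the L6-HGF monolayer, -0.30 in the L6-WT sheet and 0.07 in the L6-WT monolayer. Both sheets were below both monolayers, with log2 differences of -0.28 in L6-HGF and -0.37 in L6-WT. Each L6-HGF array was above the L6-WT array of its format, with log2 differences of 0.23 in sheets and 0.14 in monolayers.

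Pdgfc, the C chain, had -0.06 in the L6-HGF sheet, -0.04 in the L6-HGF monolayer, 0.04 in the L6-WT sheet and 0.25 in the L6-WT monolayer. The L6-HGF values were both below the L6-WT values, with log2 differences of -0.10 in sheets and -0.29 in monolayers. Pdgfd, the D chain and a ligand of the beta receptor, had -0.10 in the L6-HGF sheet, 0.01 in the L6-HGF monolayer, 0.10 in the L6-WT sheet and -0.01 in the L6-WT monolayer. It spanned 0.19 over the 4 arrays, the narrowest range of the 5 genes, against 0.51 for Pdgfa, 0.31 for Pdgfc, 0.61 for Pdgfra and 1.08 for Pdgfrb. The ligand median was -0.10 between the sheets, 0.02 between the monolayers, -0.11 between the L6-HGF formats and -0.21 between the L6-WT formats. Over all genes the medians were -0.02, 0.00, 0.03 and 0.03.

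**Figure D3:**
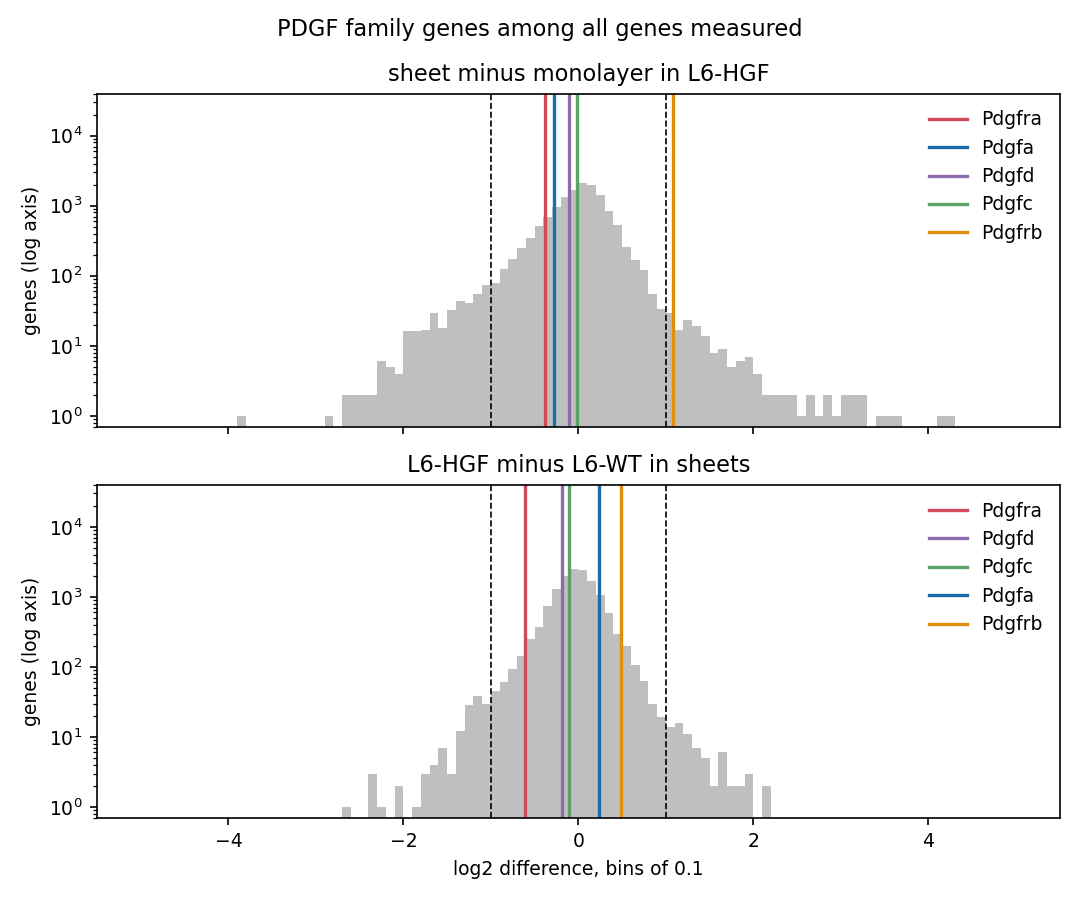
Number of genes (vertical axis, log scale) by log2 difference (horizontal axis, bins of 0.1) for 14217 genes between the L6-HGF sheet and monolayer (top) and between the L6-HGF and L6-WT sheets (bottom). Coloured lines are PDGF family genes and dashed lines are 2-fold. Pdgfrb lies at 1.08 in the upper panel and 0.48 in the lower, and Pdgfra at -0.38 and -0.61.

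Over all 4 arrays, a limma model with a term for cells and a term for format gave the only tests, with 1 residual degree of freedom. This residual also holds any real difference of the hHGF effect between formats. The variances were shrunk by limma towards a value shared by all probe sets. The SE and p given here therefore rest largely on other probe sets and are not the spread of a member's own arrays. For the hHGF term, which is shared by both formats, Pdgfra had a log2 difference of -0.42 ± 0.14 (SE) and an adjusted p of 0.515 from limma. For the sheet effect common to both lines, the Pdgfrb probe sets 1391394_s_at, 1379211_at and 1370642_s_at had 0.70 ± 0.16, 0.83 ± 0.23 and 0.64 ± 0.24, with limma adjusted p of 0.177, 0.202 and 0.255. Pdgfa had -0.32 ± 0.10 for this effect, with a limma adjusted p of 0.226. None of the 7 probe sets was called for either effect. Nor was any of the 31042 probe sets called (0%) for either effect by limma, although for the sheet effect limma called 55 of 31042 on quantile-normalized values and 2 of 14217 genes on gene means, none of them a member. At an unadjusted limma p under 0.05 were 1 of the 7 for the hHGF effect, against 9.59% of all probe sets, and 3 of the 7 for the sheet effect, against 20.4%. These 3 include 1379211_at and 1391394_s_at of Pdgfrb, which are not independent of each other. With limma on gene means, 2 of the 5 members were under 0.05 unadjusted for the sheet effect, against 24.4% of all genes.

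The sequences before the start sites of Pdgfa and Pdgfra are shown because this ligand and this receptor, which bind each other, had the highest ligand and the lowest receptor difference between the L6-HGF and L6-WT sheets. They are 250 bases long, 5′ to 3′ on the gene's strand, from RefSeq on build GRCr8, which was matched for 5 of the 6 members. Capitals mark matches, on either strand, to the GC box GGGCGG, the CCAAT box CCAAT, the TATA box TATAAA and the core ACGTG of a hypoxia response element.
Pdgfa, chr12:20759116-20759365, plus strand: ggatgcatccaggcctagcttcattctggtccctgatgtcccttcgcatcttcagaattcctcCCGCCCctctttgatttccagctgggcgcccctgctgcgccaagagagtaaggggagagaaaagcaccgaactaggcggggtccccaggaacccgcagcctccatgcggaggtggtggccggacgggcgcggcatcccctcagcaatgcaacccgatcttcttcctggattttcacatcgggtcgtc
Pdgfra, chr14:33408517-33408766, minus strand: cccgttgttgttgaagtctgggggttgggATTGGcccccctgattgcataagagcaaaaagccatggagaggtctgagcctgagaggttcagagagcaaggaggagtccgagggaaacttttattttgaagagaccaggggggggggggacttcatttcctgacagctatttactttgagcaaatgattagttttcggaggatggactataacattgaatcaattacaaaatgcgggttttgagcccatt
The Pdgfa stretch held 1 GC box, which 30.5% of 33469 rat stretches of this length also held, and 60.8% G and C, against a median of 51.2%. The Pdgfra stretch held 1 CCAAT box, as did 34.0% of all stretches, and 47.2% G and C. None of the other motifs matched in these stretches, which says nothing about the factors that bind them.

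The genes whose 4 values lay nearest to those of a receptor were found by Euclidean distance over the 4 arrays. Nearest to Pdgfrb were Napb, which acts in membrane fusion, at 0.053, Rragd, a Rag GTPase of nutrient sensing, at 0.073, and LOC102548047 at 0.095. Napb had 0.69 in the L6-HGF sheet and -0.38 in the L6-HGF monolayer, as against 0.16 and -0.16 in the L6-WT sheet and monolayer. Nearest to Pdgfra were the zinc finger gene Zik1 at 0.037, Atp23 at 0.069 and Dtd2 at 0.071. Zik1 had -0.49 in the L6-HGF sheet and -0.12 in the L6-HGF monolayer, as against 0.12 and 0.15 in the L6-WT sheet and monolayer.

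In the rat genome, Pdgfra and Pdgfrb each neighbour related receptor kinases. Kit, the stem cell factor receptor, and Kdr, a VEGF receptor, are the next protein-coding genes on one side of Pdgfra. In L6-HGF relative to L6-WT sheets they had log2 differences of -0.23 and 0.04, against -0.61 for Pdgfra. Csf1r, the receptor of macrophage colony-stimulating factor, directly follows Pdgfrb, and between the L6-HGF sheet and monolayer it had 0.19 against 1.08. Flt3, another receptor of this class, had 0.42 between the L6-HGF formats. None of these 4 receptors passed 2-fold in any of the 4 comparisons, against 0.535% to 3.75% of all genes, which is near this background. Of 10 measured relatives, which comprise these receptors without Kdr, their ligands and the VEGF family ligands, Vegfa and Pgf passed 2-fold upwards between the formats of each line, against 1.17% of all genes in L6-HGF and 0.717% in L6-WT. Both were above their monolayer in each sheet, by 1.65 and 2.26 (log2) in L6-HGF and by 1.05 and 1.62 in L6-WT. Between the sheets Vegfa was the 1 of 10 past 2-fold, at 1.15, against 0.492% of all genes upwards, and none was with quantile normalization.

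Genes that process or bind PDGF came next, and between the sheets 2 of 12 passed 2-fold downwards, against 0.95% of all genes, and none passed it upwards, against 0.492%. With quantile normalization none of the 12 passed it downwards, and 1 did with each gene as its probe set of widest span. The 2 genes were Plau and Nrp1, and the probe sets of Nrp1 had -0.98 and -1.11. The median over these 12 was -0.12, against -0.02 over all genes. Plau, the urokinase-type plasminogen activator, which releases active PDGF-D in human cells, had -1.38 in the L6-HGF sheet, 0.36 in the L6-HGF monolayer, -0.36 in the L6-WT sheet and 0.72 in the L6-WT monolayer. Between the L6-HGF and L6-WT sheets its log2 difference was -1.02, with -0.94 and -1.10 from its probe sets, of which the first is within 2-fold. Each sheet was below its monolayer, with log2 differences of -1.75 in L6-HGF and -1.09 in L6-WT. Plat, the tissue-type activator, which cleaves PDGF-C, had -0.01 in the L6-HGF sheet, -0.28 in the L6-HGF monolayer, 0.73 in the L6-WT sheet and 0.01 in the L6-WT monolayer. Its difference of -0.74 between the sheets lay within 2-fold.

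Nrp1, a coreceptor of several growth factors that also associates with PDGF receptors, was lower in L6-HGF in both formats, with log2 differences of -1.04 in sheets and -1.22 in monolayers. In monolayers it was the 1 of 12 past 2-fold downwards, against 0.309% of all genes. The convertases Furin, Pcsk5, Pcsk6 and Pcsk7 lay between -0.32 and 0.01 between the sheets and between -0.13 and 0.14 between the monolayers.

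Of 28 measured transducers of receptor signals, none passed 2-fold in any comparison, against 0.535% to 3.75% of all genes, which is near this background. With each gene as its probe set of widest span, 1 passed it upwards between the sheets. Their median was 0.03 between the sheets and 0.03 between the monolayers. It was -0.13 between the L6-HGF formats and -0.22 between the L6-WT formats, against 0.03 and 0.03 over all genes. Sheets were below monolayers for 20 of 28 in L6-HGF and for 22 of 28 in L6-WT, against 45.9% and 45.6% of all genes. The most positive difference between the sheets was that of Map2k1, a MAP kinase kinase, at 0.65, and the most negative was that of the adaptor Nck1, at -0.83. Ptpn11, the phosphatase SHP2 that binds activated PDGF receptors, had 0.64 there. Of 11 negative regulators, Spry1 passed 2-fold downwards between the monolayers, at -1.47, against 0.309% of all genes, and none passed 2-fold in the other comparisons, against 1.21% to 3.75%. Sheets were below monolayers for 8 of these 11 in L6-HGF and for 10 of 11 in L6-WT.

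Early genes that PDGF is known to induce in fibroblasts and smooth muscle cells were described as well, though many other stimuli induce them too. Between the sheets, 9 of 23 measured genes passed 2-fold downwards in L6-HGF, against 0.95% of all genes, and the median of the 23 was -0.78. Below 0 there were 16 of 23, against 53.7% of all genes. The other 7 were above 0, with Myc at 0.88 and Ptgs2 at 0.57 the highest. Between the monolayers none passed 2-fold downwards, against 0.309%, and the median was -0.04. The L6-HGF sheet held the lowest of the 4 values for 12 of 23, against 26.0% of all genes. The L6-WT sheet held the highest for 8 of 23, or 34.8%, against 29.2%, which is near this background.

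These genes were of different patterns. Egr1, an early response transcription factor, had -2.58 in the L6-HGF sheet, 0.26 in the L6-HGF monolayer, -0.26 in the L6-WT sheet and 0.48 in the L6-WT monolayer. Dusp6, a feedback phosphatase of ERK, had -1.20 in the L6-HGF sheet, 0.24 in the L6-HGF monolayer, -0.13 in the L6-WT sheet and 0.17 in the L6-WT monolayer. Here, as for Ccn1 and Phlda1, the L6-HGF sheet stood below the other arrays. Cxcl1 had -0.73 in the L6-HGF sheet, 0.02 in the L6-HGF monolayer, 1.66 in the L6-WT sheet and -0.02 in the L6-WT monolayer. Junb had 0.08 in the L6-HGF sheet, -0.08 in the L6-HGF monolayer, 1.37 in the L6-WT sheet and -0.19 in the L6-WT monolayer. For these, and for Ccl2, Dusp1, Ier2 and Fosb, the L6-WT sheet stood above the other arrays, and for Cxcl1, Ccl2, Ier2 and Fosb the L6-HGF sheet was also the lowest. Nr4a1, a nuclear receptor, had -0.54 in the L6-HGF sheet, 0.54 in the L6-HGF monolayer, -0.69 in the L6-WT sheet and 0.87 in the L6-WT monolayer, with both sheets below both monolayers. Fos also had its highest value in the L6-WT sheet, but only from 1375043_at, at 4.83, whereas 1371283_at had -0.01 in that array. The mean of the Fos probe sets is counted among the 9.

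**Figure D4:**
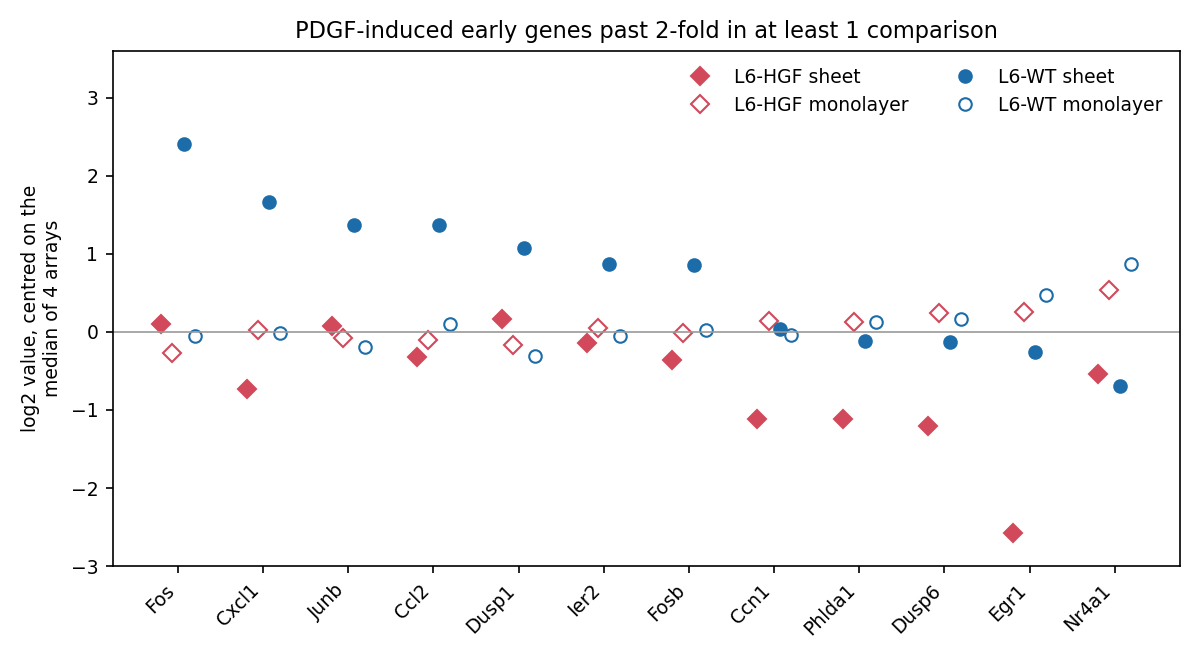
Log2 values (vertical axis, centred on the median of the 4 arrays) of 12 PDGF-induced early genes past 2-fold in at least 1 comparison (horizontal axis), with 1 symbol per array. Filled diamonds, the L6-HGF sheet, lie lowest for Egr1 (-2.58), Dusp6, Ccn1, Phlda1, Cxcl1, Ccl2, Fosb and Ier2, and filled circles, the L6-WT sheet, lie highest for Fos, Cxcl1 (1.66), Junb (1.37), Ccl2, Dusp1, Ier2 and Fosb. For Nr4a1 the L6-WT sheet lies lowest (-0.69).

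Markers of cells that usually carry the PDGF receptors were set beside the receptors. Of 13 measured fibroblast markers, 11 were below 0 between the L6-HGF and L6-WT sheets, against 53.7% of all genes, with a median of -0.59, and Pdgfra had -0.61. Past 2-fold downwards were 3 of them, Mfap5 at -2.26, Postn at -1.12 and Dpt at -1.08, against 0.95%. Between the monolayers, where Pdgfra had -0.23, 9 of 13 were below 0, against 49.4%, with a median of -0.18. Past 2-fold downwards were the same 3, against 0.309%, and 1 with quantile normalization. Between the L6-HGF sheet and monolayer, 4 of these markers passed 2-fold upwards, against 1.17% of all genes, and none passed it downwards, against 2.57%, with a median of -0.05. In L6-WT, 4 passed 2-fold upwards, against 0.717%, and none downwards, against 0.492%. Pdgfra had -0.38 and 0.01 in these comparisons. The 4 were Dpt, Postn, Dcn and Lum, at 3.48, 2.84, 2.39 and 1.04 between the L6-HGF formats, whereas Col1a1, Col1a2, Thy1 and Fap had -0.86, -0.64, -0.52 and -0.34. Of 11 mural cell markers, 8 were above 0 between the L6-HGF sheet and monolayer, against 53.9% of all genes, with a median of 0.17, and Pdgfrb had 1.08. None of the 11 passed 2-fold there, against 3.75%. The contractile genes Tagln and Acta2 had 0.62 and 0.40 there, Notch3 had 0.32, and the pericyte genes Rgs5 and Cspg4 had 0.10 and -0.16. Between the sheets, where Pdgfrb had 0.48, Acta2 had 0.96 and Tagln 0.85, the highest of the 11. Of these 11, 8 were above 0 there, against 46.2% of all genes, with a median of 0.07. None passed 2-fold between the sheets, against 1.44%. Between the L6-WT formats, where Pdgfrb had 0.37, Acta2 had -0.73 and Tagln -0.18, and 6 of the 11 were below 0, against 45.6%. Of 8 endothelial markers, none passed 2-fold in any comparison, against 0.535% to 3.75% of all genes. Of 9 myoblast markers, Mymk passed 2-fold downwards between the L6-HGF and L6-WT arrays of each format, and Itga7 between the sheet and the monolayer of each line, against 0.309% to 2.57% of all genes. With quantile normalization neither Mymk between the sheets nor Itga7 in L6-HGF passed 2-fold. Mymk between the sheets was also within 2-fold with each array centred on its own median, and Itga7 in both lines with plain _at probe sets only. For Itga7 this leaves 1371214_at, with -0.22 between the L6-HGF formats and 0.20 between the L6-WT formats. Between the sheets 6 of the 9 were below 0, against 53.7% of all genes, with a median of -0.08, and Des had 0.76 and Ncam1 0.36. Between the monolayers 7 of the 9 were below 0, against 49.4%, with a median of -0.18, and Des had 0.43. Since levels are lost, these values do not show whether other cells were present. The part of such cells in the receptor values was not tested, and fewer cells of a type cannot be told apart from less RNA per cell.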

How the data were processed

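Total RNA of 4 cultures was hybridised to Affymetrix GeneChip arrays for the rat genome, with 1 array per culture. The authors processed the arrays with RMA, which is also named in the submitters' processing notes, and normalized to median. Neither the version of RMA nor a genome build was found: both are not given in the sources used here. What the authors deposited are log2 values whose median over the 4 arrays is 0 for every probe set, within 5e-07. That the logarithm has base 2 was checked with fold differences in the study's supplement. A filter on dim probe sets was not possible.

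After 57 control probe sets were left out, 31042 remained, of which 20826 had 1 gene symbol, 436 had several and 9780 had none in the annotation. A gene is the mean of its probe sets. Entrez identifiers of 20758 probe sets matched the rat table of build GRCr8, with 0 symbols changed. Conditions were compared by log2 difference with a threshold of 2-fold. limma (version 3.58.1, R 4.3.3) was run over all probe sets with Benjamini-Hochberg adjustment and tested on simulated data. Python 3.11.15, pandas 2.3.3, numpy 2.4.6 and matplotlib 3.10.9 were used for the rest.

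The members and the 11 gene lists were chosen with earlier results of these data known. The rule for named genes took all members, list genes past 2-fold in at least 1 comparison, of which only part is printed, and the 3 nearest genes to the members with a span of at least 1 (log2), or to the 2 widest where fewer reached it, leaving out genes with only _x_at probe sets. List genes within 2-fold were named after their values were seen. Alternatives were quantile normalization, centring of arrays, other summaries of probe sets, a 1.5-fold threshold and other limma settings.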

Additional observations from a re-analysis of the deposited data

Results flagged for a closer look

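Differences in 1 contrast that had opposite signs in the other format or line were sought among 29 named genes. These were the measured members and the list genes past 2-fold in at least 1 comparison, without the nearest genes. None of the differences was tested. The hHGF effect had opposite signs in sheets and monolayers for 12 genes. The share of all genes with opposite signs was not computed, so this count has no background beside it. In monolayers Pdgfd and Dcn had 0.02, Cxcl1 0.04, Dusp6 0.07, and Ier2 and Junb 0.11. In sheets Nr4a1 had 0.15 and Pdgfd -0.19. All of these lay within 1 SD of the controls, 0.12 and 0.22, so that their signs are uncertain. For Pdgfrb the effect in sheets exceeded that in monolayers by 0.71 (log2), with 0.83, 0.82 and 0.48 from its probe sets, and for Pdgfd the value was -0.21, against an SD of 0.19 and a largest size of 0.69 over 45 bacterial controls. The same quantity was 0.64 for Pgf and 0.48 for Nr4a1. It was -2.44 for Cxcl1, -1.41 for Junb, -1.33 for Ccn1, -1.14 for Dusp6, -1.12 for Ier2, -1.05 for Dusp1, -1.03 for Lum and -0.97 for Dcn.

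The sheet effect had opposite signs in L6-HGF and L6-WT for 8 genes, again with no share over all genes computed. The value in L6-HGF minus that in L6-WT was -0.38 for Pdgfra and -0.21 for Pdgfd. For Pdgfra the L6-WT value was 0.01, and its sign turned with the scaling of the arrays. Pdgfd had -0.11 in L6-HGF and 0.10 in L6-WT, and Ccn1 had 0.08 in L6-WT, all within 1 SD of the controls. The value in L6-HGF minus that in L6-WT was 0.68 for Spry1, -2.44 for Cxcl1, -1.48 for Ccl2, -1.33 for Ccn1, -1.18 for Fosb and -1.12 for Ier2. By construction this quantity is the same number as the one above for a gene that appears in both.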

How the results depend on the processing

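Of 100 member differences recomputed under 5 alternatives, 100 moved by less than 1 SD of the bacterial controls, and 2 changed sign. Both sign changes belong to Pdgfra between the L6-WT formats, at -0.02 with quantile normalization and -0.01 with each array centred on its own median, in place of 0.01. Pdgfa, Pdgfc, Pdgfd and Pdgfra have 1 probe set each, so other summaries of probe sets could not change them. Centring shifts all genes of a comparison equally, and the array medians lay between -0.01 and 0.01. The small movement of the members was thus largely fixed in advance. With quantile normalization Pdgfra nevertheless fell below the largest bacterial difference between the sheets and between the L6-HGF formats. The L6-HGF sheet array had the widest spread over probe sets, with an SD of 0.28, against 0.20 to 0.22 in the others. Pdgfrb stayed past 2-fold between the L6-HGF formats under every alternative, between 1.05 and 1.24. Plain _at probe sets and the widest span both leave only 1379211_at, which has the largest difference of its probe sets. No alternative took 1391394_s_at alone, which had 0.94 and lay within 2-fold. At a threshold of 1.5-fold, 1 member instead of 0 was past it between the sheets, which was Pdgfra, against 5.78% of all genes. The number of members past the threshold did not change in the other comparisons or under the other alternatives. With limma, 0 members were called for either effect under each alternative model, of which quantile-normalized values gave 55 calls among 31042 probe sets for the sheet effect, gene means 2 among 14217 genes and the others 0. The smallest adjusted p of a member from limma then lay between 0.449 and 1 for the hHGF effect and between 0.107 and 0.187 for the sheet effect. Of 360 list counts, 14 moved by more than 1.5 times, 7 of them with quantile normalization, where none of the 12 processing genes passed 2-fold downwards between the sheets. Quantile normalization acted on centred values and is no normalization of signal. The limma model blocks each effect by the other factor, but no block by replicate number could be made with 1 array per condition, and for the same reason no array could be left out. Precision is limited by the 4 arrays.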
